A study of Schizosaccharomyces pombe
Saccharomyces cerevisiae with 24 samples.

Results

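The genes described here encode TATA-binding protein (TBP), TFIIA, TFIIB, TFIIF, TFIIE and the TBP-removing ATPase Mot1 in budding yeast. They were taken by identifier from both deposited count tables: SPT15 (YER148W), TOA1 (YOR194C), TOA2 (YKL058W), SUA7 (YPR086W), TFG1 (YGR186W), TFG2 (YGR005C), TFA1 (YKL028W), TFA2 (YKR062W) and MOT1 (YPL082C). These are 9 of 7127 listed genes, and all 9 were among the 6069 that had a count in at least 50% of the 24 libraries. Diploid W303 cells growing in raffinose were given galactose for 60 or 20 min and then received 4-thiouracil (4sU), a uracil analog taken up into new RNA, for 6 min, or did not receive it. RNA from each flask was biotinylated and separated into labeled RNA (held on streptavidin), unlabeled RNA (the flow-through) and total RNA (not separated). The 12 conditions, each with 2 biological replicates, were therefore 60 and 20 min with 4sU and 60 and 20 min without 4sU, in each of the 3 fractions. Every flask was mixed with 4sU-labeled S. pombe cells before RNA isolation, and the normalized count is the read count of a gene per 2000000 reads from S. pombe.

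The general transcription factors assemble with RNA polymerase II at promoters into the preinitiation complex. TBP binds and bends promoter DNA, TFIIA stabilizes it there, TFIIB links it to the polymerase, TFIIF arrives with the polymerase, and TFIIE brings in TFIIH. Mot1 uses ATP to take TBP off DNA, which frees TBP for other promoters.

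The study followed the exchange of these same factors on chromatin, in strains derived from W303 in which one allele of a factor was driven by the galactose-inducible GAL1 promoter. For TFIIA, TFIIE and TFIIF, both subunits had such an allele. The RNA cultures are named in the labels and methods as W303, with no tagged copy mentioned, and no RNA library from before galactose was used here, so the step from raffinose to galactose cannot be read from these data. A read from a tagged allele would also be counted with its gene.

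Library totals ranged between 6600472 and 38373886 reads in labeled RNA with 4sU, and between 1073888 and 4751222 in labeled RNA without it. They ranged between 2910909 and 10320711 in unlabeled RNA and between 4380685 and 25744071 in total RNA. The first 20 min replicate of labeled RNA without 4sU stood apart, with a normalized total of 3259247, against 223290 to 328641 in the other 3 such libraries. All 16 genes of a list of haploid-specific and mating-type genes, which a/alpha diploids repress, lay below the median gene in total RNA with 4sU (list median 1.16 normalized counts, against 77.8 for the median gene). Of 7 galactose pathway genes, 6 lay above that median gene, with a list median of 2170, and 0 of 7 passed between 60 and 20 min in labeled RNA (1 at an unadjusted p under 0.05) or in total RNA with 4sU (0) by edgeR, with 0 in both by DESeq2. Gene lengths were not used here, so each level below is compared with the same gene in other libraries and not with other genes.

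**Figure D1:**
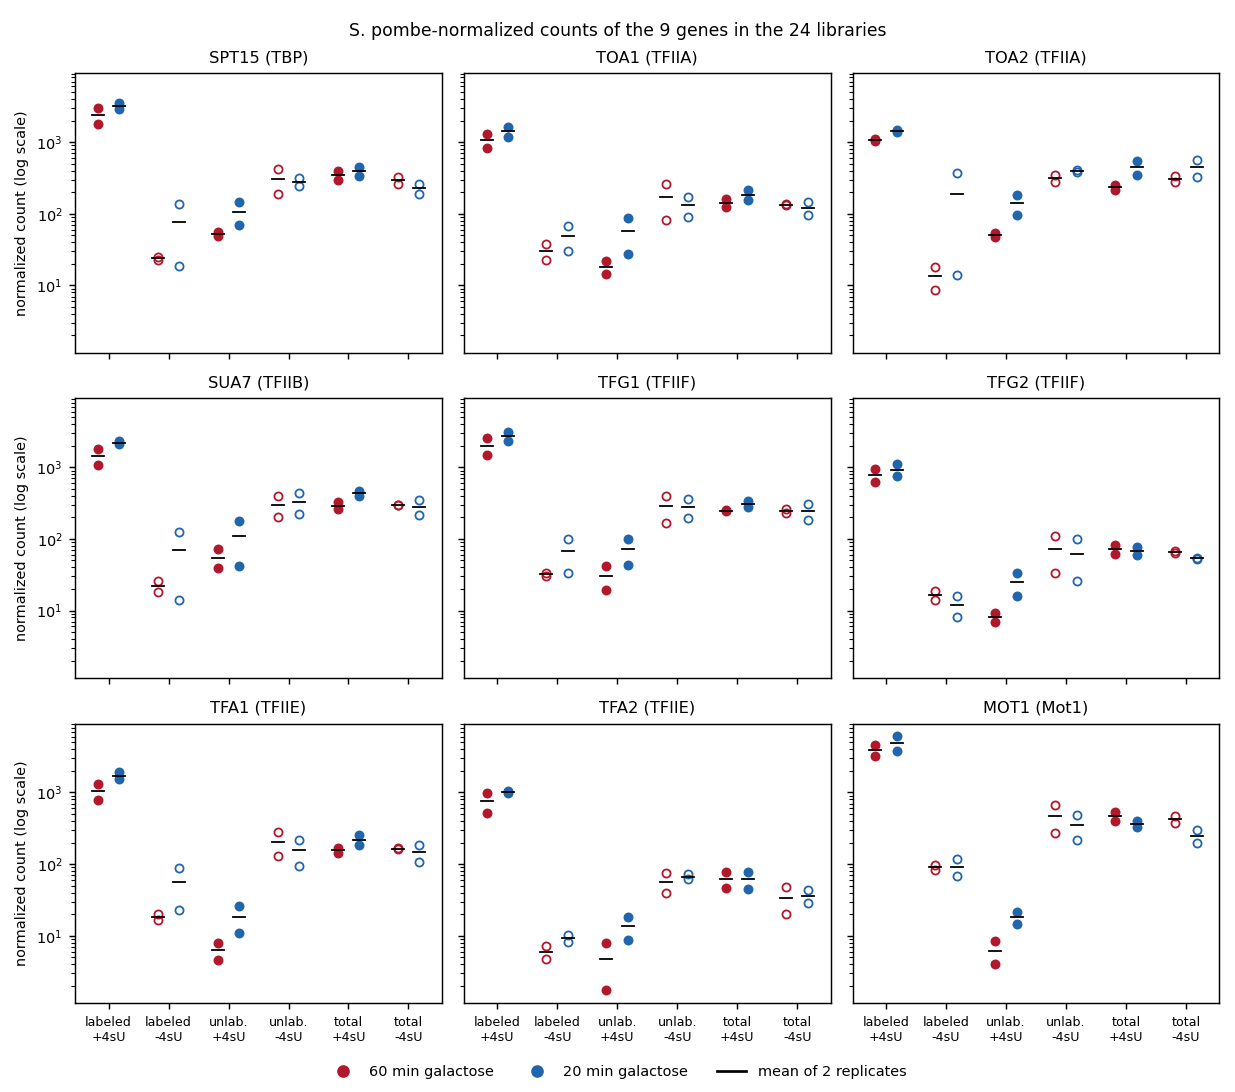
Normalized counts (vertical axis, log scale) of the 9 genes in all 24 libraries, 1 panel per gene, with the fraction and 4sU on the horizontal axis, 60 min in red to the left of 20 min in blue, filled points with 4sU and open points without, and a bar at the mean of 2 replicates. In each panel the 4 labeled libraries with 4sU are the highest. MOT1, TFA1, TOA1, TFG1, TFG2 and TFA2 have their lowest value in unlabeled RNA with 4sU, and SPT15, TOA2 and SUA7 in labeled RNA without 4sU.

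Newly made RNA of the 9 genes did not change detectably between 60 and 20 min in galactose. SPT15, which encodes TBP, had 1819 and 3030 normalized counts in labeled RNA at 60 min, against 3530 and 2914 at 20 min. The 60 and 20 min values of SPT15 overlapped, and its log2 fold change was -0.41 ± 0.47 (SE, n = 2 each). All 9 genes had negative log2 fold changes, between -0.71 and -0.25 with a median of -0.42, and the median over all genes tested was -0.43. In edgeR (quasi-likelihood test, p adjusted by Benjamini-Hochberg over 6069 genes), 0 of 9 passed 0.05 (0 at an unadjusted p under 0.05, 0 by DESeq2), where 1.35% of all genes did. The lowest adjusted p among the 9 was 0.706. On TMM scaling, which sets each library to its own bulk of genes and moves the median of all genes to 0.03, the log2 fold changes of the 9 ran between -0.27 and 0.21 with a median of 0.02.

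For TFIIA, TOA1 (large subunit) had 817 and 1296 normalized counts in labeled RNA at 60 min, against 1635 and 1185 at 20 min. TOA2 (small subunit) had 1046 and 1091 at 60 min, against 1479 and 1386 at 20 min. TOA1 overlapped between the times and TOA2 did not, although the test called neither. SUA7, which encodes TFIIB, had 1066 and 1794 normalized counts at 60 min, against 2299 and 2088 at 20 min, again without overlap and without passing the test.

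For TFIIF, TFG1 (the largest subunit) had 1464 and 2566 normalized counts in labeled RNA at 60 min, against 3143 and 2318 at 20 min. TFG2 (the second subunit) had 619 and 941 at 60 min, against 1099 and 750 at 20 min. Both TFIIF genes overlapped between the times. For TFIIE, TFA1 (large subunit) had 792 and 1315 at 60 min, against 1920 and 1518 at 20 min, and TFA2 (small subunit) had 512 and 994 at 60 min, against 1041 and 994 at 20 min. The nearest TFA2 values of the 2 times were almost equal. TFA1 had the largest difference of the 9, a log2 fold change of -0.71 ± 0.47 (SE), and its values at the 2 times did not overlap. MOT1 had 3204 and 4580 normalized counts at 60 min, against 6095 and 3803 at 20 min, which overlapped.

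Taken by replicate number, the first replicate held most of these differences. Its log2 difference between 60 and 20 min was between -1.28 (TFA1) and -0.50 (TOA2) for the 9 genes and -0.92 for the median gene. In the second replicate the 9 genes lay between -0.35 (TOA2) and 0.33 (TFG2), and the median gene at 0.01. The 9 genes thus shifted by about as much as other genes did within each replicate.

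**Figure D2:**
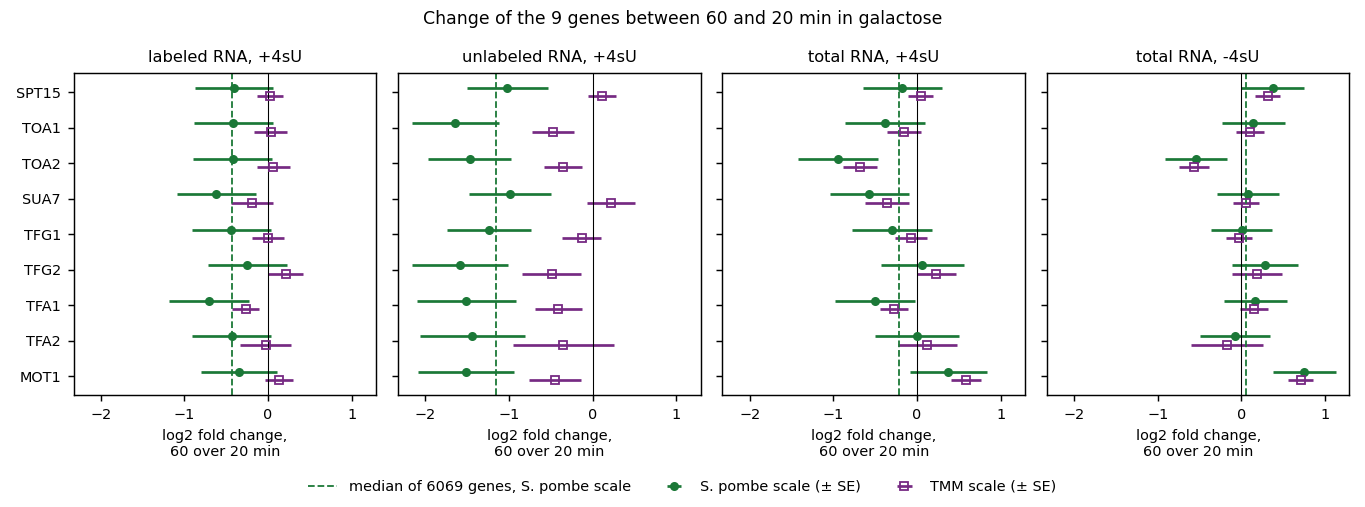
Log2 fold change between 60 and 20 min (horizontal axis, 60 over 20 min) of the 9 genes in 4 sets of libraries, on the S. pombe scale (green circles) and on TMM scaling (open purple squares), with bars of ± 1 SE and a dashed line at the median of 6069 genes on the S. pombe scale. In labeled RNA the green points lie around the dashed line at -0.43 and the purple points around 0, while in total RNA TOA2 is lowest and MOT1 highest with and without 4sU.

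In total RNA, which holds the whole pool of each transcript, TOA2 and MOT1 were at opposite ends of the 9 genes, although neither passed the test on the S. pombe scale. TOA2 had 254 and 213 normalized counts in total RNA with 4sU at 60 min, against 553 and 349 at 20 min. In total RNA without 4sU it had 342 and 276 at 60 min, against 570 and 330 at 20 min. The times did not overlap with 4sU and overlapped without it. The log2 fold change of TOA2 was -0.95 ± 0.48 with 4sU (edgeR adjusted p = 0.707) and -0.54 ± 0.37 without 4sU (edgeR adjusted p = 0.636).

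MOT1 had 399 and 533 normalized counts in total RNA with 4sU at 60 min, against 393 and 325 at 20 min. Without 4sU it had 465 and 374 at 60 min, against 302 and 197 at 20 min. Its 60 min values were above both 20 min values in each set. The log2 fold change of MOT1 was 0.38 ± 0.46 with 4sU (edgeR adjusted p = 0.934) and 0.75 ± 0.37 without 4sU (edgeR adjusted p = 0.411). On TMM scaling MOT1 rose in total RNA without 4sU, with a log2 fold change of 0.71 ± 0.15 (edgeR adjusted p = 0.012), where 3.94% of all genes were called higher. With 4sU it missed the threshold on that scale, at 0.58 ± 0.18 (edgeR adjusted p = 0.062), as did TOA2 with -0.68 ± 0.20 (edgeR adjusted p = 0.061).

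SPT15 had 299 and 399 normalized counts in total RNA with 4sU at 60 min, against 448 and 339 at 20 min, with overlap. SUA7 had 262 and 323 at 60 min, against 466 and 400 at 20 min, without overlap, and its log2 fold change was -0.57 ± 0.48 (edgeR adjusted p = 0.881). Without 4sU, SPT15 had 327 and 262 at 60 min, against 264 and 191 at 20 min, a log2 fold change of 0.37 ± 0.37 (edgeR adjusted p = 0.786). The times overlapped narrowly for SPT15 there, and its difference had the opposite sign to that with 4sU.

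By edgeR, 0 of 9 genes passed in total RNA with 4sU (1 at an unadjusted p under 0.05, 0 by DESeq2), where 1.22% of all genes did. Without 4sU it was 0 of 9 (1 at an unadjusted p under 0.05, 0 by DESeq2), where 2.47% of all genes did. The difference of the time change between labeled and total RNA was also tested, and 0 of 9 passed (0 at an unadjusted p under 0.05, 0 by DESeq2, 0.033% of all genes by edgeR). It was largest for MOT1, at -0.72 ± 0.65, and for TOA2, at 0.53 ± 0.67, both with an edgeR adjusted p of 0.9999. The difference of the time change between total RNA with and without 4sU likewise called 0 of 9 (0 at an unadjusted p under 0.05, 0 by DESeq2, 0.198% of all genes by edgeR). In bulk RNA a lower count in fewer cells and less RNA in every cell cannot be told apart.

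Genes of the wider initiation machinery gave no time calls in labeled or total RNA either. By edgeR, 0 of 14 TFIID subunit genes, 0 of 10 TFIIH genes, 0 of 12 RNA polymerase II subunit genes and 0 of 4 other TBP regulator genes passed in labeled RNA (0 in each list at an unadjusted p under 0.05, 0 by DESeq2). Their median log2 fold changes in labeled RNA were -0.47, -0.39, -0.30 and -0.31 in that order. In total RNA with 4sU the same lists also had 0 genes past the threshold (1 TFIIH gene at an unadjusted p under 0.05, 0 by DESeq2), with medians of -0.15, -0.28, -0.21 and -0.01, beside -0.30 for the 9 genes and -0.21 for all genes.

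When all 12 libraries with 4sU were fitted with time as the only term, 0 of 9 genes passed (0 at an unadjusted p under 0.05, 0 by DESeq2), where 0% of all genes did by edgeR. With the fraction added as a covariate, 3 of 9 passed, TOA1, TOA2 and TFA1, all lower at 60 min, where 20.7% of all genes were called lower. TOA1 passed narrowly there (edgeR adjusted p = 0.0499). Both fits count the 3 fractions of one flask as separate libraries without a flask term, so their p-values treat these as independent.

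Unlabeled RNA with 4sU, the part that escaped capture, was lower at 60 min than at 20 min for all 9 genes and for the bulk of all genes. TOA2 had 46.8 and 54.1 normalized counts at 60 min, against 96.0 and 184 at 20 min. TFG2 had 6.93 and 9.25 at 60 min, against 15.8 and 33.5 at 20 min. MOT1 had 4.04 and 8.32 at 60 min, against 14.5 and 21.7 at 20 min. The second 20 min library was the highest for each of these 3 genes. The median gene fell as well, with a log2 difference of -0.717 in the first replicate and -1.155 in the second. By edgeR, 6 of 9 genes were called lower, where 30.5% of all genes were called lower. These were TOA1 (log2 fold change -1.64), TFG2 (-1.59), MOT1 (-1.51), TFA1 (-1.51), TOA2 (-1.47) and TFG1 (-1.24), with edgeR adjusted p between 0.013 and 0.047.

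The genes of TBP, TFIIB and the small TFIIE subunit did not pass in unlabeled RNA, with log2 fold changes of -1.02 for SPT15, -0.99 for SUA7 and -1.44 for TFA2 (edgeR adjusted p 0.090, 0.102 and 0.063). The median over all genes was -1.16. Which genes passed depended on the library left out, and the values of all genes moved with it. Without the second 20 min library the log2 fold changes of the 6 called genes lay between -1.19 (MOT1) and -0.51 (TFG1), with a median over all genes of -0.55. Without the first 60 min library those 6 lay between -1.41 (TFG2) and -0.80 (TFG1), with a median over all genes of -0.95. Without the first 20 min library the median over all genes was -1.53. These fits leave 1 library at that time, which is assumed to vary like the other groups. In a fit of the 4 libraries alone 0 of 9 passed, where 1.04% of all genes did, with nearly the same log2 fold changes and larger errors (TOA1 -1.64 ± 0.78, against ± 0.52 in the fit of all 6 groups). With the replicate number as a block TFG1 kept -1.24 and missed the threshold (edgeR adjusted p = 0.053). On TMM scaling 0 of 9 passed, where 7.74% of all genes did, and there the values themselves were nearer 0, with SPT15 and SUA7 above it. Raw counts were low here, between 3 and 280 reads for a gene in a library.

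The control flasks showed how much of the labeled signal did not depend on 4sU. In labeled RNA without 4sU, the first 60 min replicate had between 1.24% (SPT15) and 4.59% (TOA1) of the normalized count with 4sU, against 2.13% for the median gene. The second 60 min replicate had between 0.48% (TFA2) and 1.99% (TFG2), against 1.16% for the median gene. At 20 min the second replicate had between 0.64% (SPT15) and 2.55% (TOA1), against 1.25% for the median gene.

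The library that stood apart was different. There TOA2 had 368 normalized counts without 4sU, which was 24.9% of its 1479 with 4sU, while the median gene had 4.08% and the other 8 genes between 0.75% (TFG2) and 5.52% (SUA7). The other 3 labeled libraries without 4sU held 18.3, 8.53 and 13.8 normalized counts of TOA2. All 9 genes rose in labeled RNA with 4sU against without it by edgeR, where 98.8% of all genes were called higher. Log2 fold changes were between 4.59 ± 1.10 (TOA2) and 6.87 ± 0.54 (TFA2), with a median of 5.59, and the median over all genes was 5.51. Without the library that stood apart, the value was 6.47 for TOA2 and 6.96 for SPT15, against 6.03 for SPT15 with it. On TMM scaling, which removes the shift of all genes, 0 of 9 passed, where 4.66% of all genes did, and the sign was negative for 5 of the 9: TOA1 (-0.66), TOA2 (-0.62), TFA1 (-0.15), MOT1 (-0.14) and TFG2 (-0.07).

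The 4sU pulse itself left total RNA of the 9 genes without a called difference. TFA2 had 46.6 and 77.0 normalized counts in total RNA with 4sU at 60 min and 44.8 and 77.3 at 20 min, against 47.9 and 20.1 without 4sU at 60 min and 43.2 and 28.9 at 20 min. Its libraries with and without 4sU overlapped, and its log2 fold change was 0.82 ± 0.29 (edgeR adjusted p = 0.068). The next was SPT15 at 0.52 ± 0.26 (edgeR adjusted p = 0.277), and TOA2 was the only one of the 9 with a negative value, -0.20 ± 0.26 (edgeR adjusted p = 0.747). By edgeR, 0 of 9 passed (2 at an unadjusted p under 0.05, 0 by DESeq2), where 4.7% of all genes did. TFA2 passed without the first 60 min library with 4sU, the first 20 min library with 4sU or the first 60 min library without 4sU. Its log2 fold changes there were 0.96, 0.96 and 1.10, where 226, 147 and 195 of 6069 genes were called higher. With the replicate number as a block TFA2 passed at 0.83 (edgeR adjusted p = 0.037), where 364 of 6069 genes were called higher. Of 12 RNA polymerase II subunit genes, 5 rose by edgeR, where 3.49% of all genes were called higher, with a list median of 0.56. By DESeq2 4 did, where 248 of 5363 genes were called higher. On TMM scaling 2 did, where 206 of 6069 genes were called higher and the list median was 0.34. By edgeR 0 genes passed among the TFIID, TFIIH and TBP regulator lists (1, 0 and 1 at an unadjusted p under 0.05, 0 by DESeq2).

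In unlabeled RNA, MOT1 and TFA1 had the largest drops of the 9 genes with 4sU. MOT1 had 4.04 and 8.32 normalized counts with 4sU at 60 min and 14.5 and 21.7 at 20 min, against 270 and 664 without 4sU at 60 min and 215 and 489 at 20 min. TFA1 had 4.62 and 7.86 with 4sU at 60 min and 10.7 and 25.6 at 20 min, against 130 and 278 without 4sU at 60 min and 92.6 and 219 at 20 min. For both genes every library with 4sU was far below every library without it. The libraries with 4sU held between 7 and 33 raw reads of MOT1 and between 8 and 39 of TFA1. The log2 fold change was -5.20 ± 0.61 for MOT1 (edgeR adjusted p = 3.0e-15) and -4.01 ± 0.61 for TFA1 (edgeR adjusted p = 4.3e-10).

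The others were nearer to the bulk of genes. SPT15 had 48.5 and 56.4 normalized counts in unlabeled RNA with 4sU at 60 min and 68.9 and 144 at 20 min, against 187 and 420 without 4sU at 60 min and 242 and 313 at 20 min. Its groups did not overlap, and its log2 fold change was -1.95 ± 0.53 (edgeR adjusted p = 0.00038). All 9 genes fell by edgeR, where 85.1% of all genes were called lower, and the remaining 6 genes had log2 fold changes between -2.87 (TFA2) and -2.02 (SUA7). The median over all genes was -2.62, so MOT1 lay at percentile 2.4 of all genes and TFA1 at percentile 17.0, while the other 7 were between percentiles 43.0 and 67.2. List medians were -3.12 for the TFIID subunit genes and -3.80 for the TFIIH genes. They were -2.24 for the RNA polymerase II subunit genes and -2.46 for the other TBP regulator genes.

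On TMM scaling, which moved the median of all genes to -0.29, only MOT1 and TFA1 of the 9 were still called lower. MOT1 had -2.72 ± 0.27 (edgeR adjusted p = 2.1e-06) and TFA1 -1.57 ± 0.27 (edgeR adjusted p = 0.00014), where 31.1% of all genes were called lower. SPT15 was called higher on that scale, at 0.46 ± 0.18 (edgeR adjusted p = 0.041), where 25.1% of all genes were. The sign also turned on that scale for TOA1, TOA2, SUA7 and TFG2, which were not called. Leaving out any 1 of the 8 unlabeled libraries kept MOT1 between -5.61 and -4.73 and TFA1 between -4.52 and -3.59 on the S. pombe scale.

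**Figure D3:**
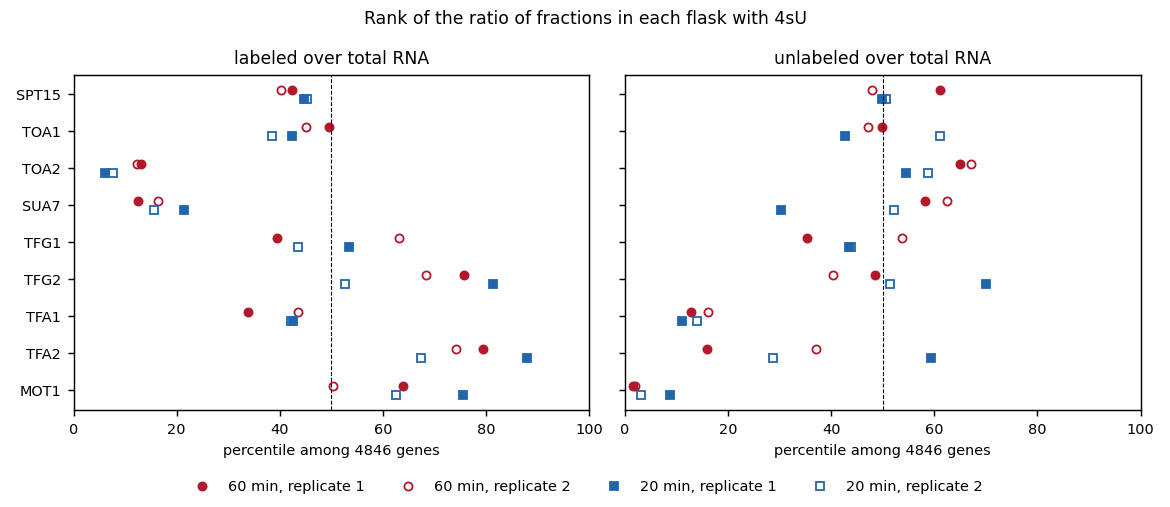
Percentile of each gene's labeled to total ratio (left) and unlabeled to total ratio (right) among the 4846 genes with a count in all 12 libraries with 4sU, with 1 point for each time and replicate, circles for 60 min above squares for 20 min, filled for replicate 1 and open for replicate 2. TOA2 and SUA7 stay at or below percentile 21.5 in the left panel, and MOT1 at or below 8.7 in the right panel.

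The ratio of labeled to total RNA within a flask ranks a gene by how much of its RNA was captured beside other genes. The effect of gene length on read counts cancels in it. An effect of length on the capture itself would not cancel, and was not tested. Because the S. pombe RNA was labeled as well, the ratio is not a share of RNA, and only its rank among 4846 genes with a count in all 12 libraries with 4sU is read here. TOA2 ranked lowest of the 9 in the mean over flasks, at percentiles 13.1 and 12.3 at 60 min and 6.1 and 7.6 at 20 min. SUA7 was at 12.5 and 16.4 at 60 min and 21.5 and 15.6 at 20 min. TFA2 ranked highest, at 79.4 and 74.1 at 60 min and 87.9 and 67.4 at 20 min. These 3 genes kept to their end of the range in all 4 flasks. From the mean over flasks, the others were TFA1 at percentile 40.4, TOA1 at 43.0, SPT15 at 43.3, TFG1 at 51.1, MOT1 at 65.1 and TFG2 at 70.9.

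The same contrast was tested on TMM scaling with time as a covariate. TFA2 was higher in labeled than in total RNA, with a log2 fold change of 0.70 ± 0.22 (edgeR adjusted p = 0.013), as was TFG2, with 0.46 ± 0.15 (edgeR adjusted p = 0.018). TOA2 was lower, with -1.15 ± 0.18 (edgeR adjusted p = 0.00018), as was SUA7, with -0.80 ± 0.10 (edgeR adjusted p = 4.5e-05). The difference of TFA1 was smaller, -0.25 ± 0.10 (edgeR adjusted p = 0.038), and it missed the threshold when any 1 of the 8 libraries was left out. It also missed it with the flask (replicate and time) as a block (-0.25, edgeR adjusted p = 0.053). TFG2 missed it without the first labeled 20 min library (0.43) or without the first total 60 min library (0.42). The 5 called of 9 stand beside 64.3% of all genes called (34% higher, 30.3% lower), so the number is near that of the whole table. MOT1 had 0.31 ± 0.13 (edgeR adjusted p = 0.051), SPT15 -0.19 ± 0.09 (edgeR adjusted p = 0.094), TOA1 -0.19 ± 0.10 (edgeR adjusted p = 0.116) and TFG1 -0.04 ± 0.10 (edgeR adjusted p = 0.732).

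The unlabeled to total ratio gave another order. MOT1 was at percentiles 1.5 and 1.9 at 60 min and 8.7 and 3.1 at 20 min. TFA1 was at 12.8 and 16.1 at 60 min and 11.0 and 14.0 at 20 min. Both were low in all 4 flasks, whereas TFA2 varied between 16.0 and 59.3. From the mean over flasks the other 6 genes were between percentile 45.0 (TFG1) and 62.1 (TOA2). A low rank in this ratio did not come with an extreme rank in the labeled to total ratio, where TFA1 and MOT1 were at percentiles 40.4 and 65.1.

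**Figure D4:**
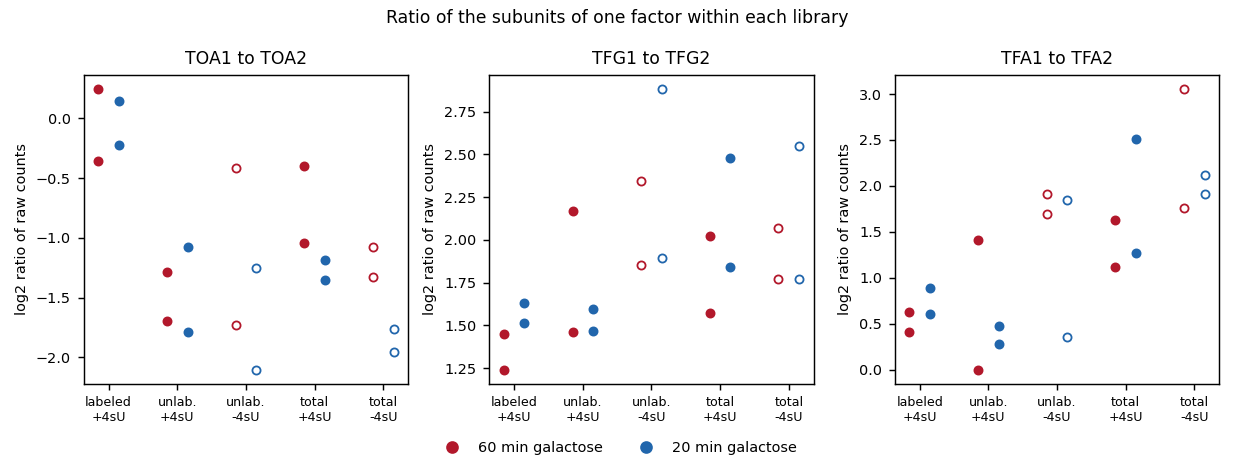
Log2 ratio of raw counts (vertical axis) of the 2 subunits of TFIIA, TFIIF and TFIIE within each library, by fraction and 4sU, with 60 min in red to the left of 20 min in blue, filled points with 4sU and open points without. The vertical axes differ between panels, and labeled RNA without 4sU is not drawn. For TOA1 to TOA2 the labeled libraries lie above the total libraries, and for TFA1 to TFA2 they lie below them.

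The 2 subunits of a factor are needed in equal number in the protein complex, and the ratio of their counts within a library depends on no scaling. Its level reflects gene length as well, so only its change between libraries is read. The log2 ratio of TOA1 to TOA2 was -0.05 ± 0.29 in labeled RNA with 4sU, against -0.99 ± 0.42 in total RNA with 4sU (SD, n = 4 each over both times). The labeled libraries, between -0.36 and 0.25, did not overlap with the total libraries, between -1.35 and -0.40. The unlabeled libraries with 4sU were at -1.46 ± 0.34, between -1.79 and -1.07.

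The TFA1 to TFA2 ratio ran the other way, at 0.63 ± 0.20 in labeled RNA with 4sU, against 1.63 ± 0.62 in total RNA with 4sU. Labeled libraries were between 0.40 and 0.88 and total libraries between 1.12 and 2.51, without overlap. TFG1 to TFG2 was at 1.46 ± 0.16 in labeled RNA, against 1.98 ± 0.38 in total RNA, and there the ranges of 1.24 to 1.63 and 1.57 to 2.48 overlapped. These ratios follow from the same counts as the labeled to total contrast and are not a separate line of evidence.

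Between the times, the TOA1 to TOA2 ratio in total RNA was higher at 60 min with and without 4sU. With 4sU it averaged -0.72 ± 0.45 at 60 min, against -1.27 ± 0.12 at 20 min, and without 4sU it averaged -1.20 ± 0.18 at 60 min, against -1.86 ± 0.14 at 20 min (SD, n = 2 each). The times did not overlap in either set. In labeled RNA the ratio averaged -0.05 ± 0.43 at 60 min, against -0.04 ± 0.26 at 20 min, with overlap. With 2 libraries per group an exact permutation test cannot pass 0.05, so no test was made of these differences between times.

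How alike the genes of one factor were depended on which libraries were used. Likeness was taken as Pearson's r of log2 normalized counts, centered within each fraction and 4sU state, over 24 libraries that share the S. pombe scale of each library. Over all 24 it was 0.65 for TOA1 with TOA2, 0.54 for TFG1 with TFG2 and 0.61 for TFA1 with TFA2. TOA2 ranked 3815 of 6068 genes by likeness to TOA1, TFG2 ranked 4668 for TFG1, and TFA2 ranked 4188 for TFA1. From the other side, TOA1 ranked 3281 for TOA2, TFG1 ranked 779 for TFG2 and TFA1 ranked 1810 for TFA2. In the 12 libraries with 4sU r was 0.87, 0.88 and 0.81 for the 3 factors in that order, and the ranks were 2302, 1899 and 3155, or 1211, 708 and 1073 from the other side. Without the library that stood apart, a choice made after seeing the data, r was 0.733, 0.845 and 0.639, and TFG2 ranked 1299 for TFG1 and TFG1 ranked 265 for TFG2. Over the 36 pairs of the 9 genes, r was between -0.07 and 0.96 with a median of 0.74. On TMM scaling r was -0.54 for the TFIIA genes, 0.66 for the TFIIF genes and -0.03 for the TFIIE genes. The genes most like SPT15 on the S. pombe scale were YBR042C (0.977), YDR245W (0.977) and YBR125C (0.976).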

How the data were processed

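RNA was measured in 24 libraries of diploid W303 cells. The authors aligned reads to R64 (sacCer3) with HISAT2 2.0.4, took reads of the S. pombe spike-in from ASM294v2, and counted with featureCounts, by strand and with multi-mapping reads, and deposited raw counts per gene. They also deposited a signal table, in which each count is divided by the library's S. pombe reads over 2000000. The number of columns left unmapped to a sample was 0. S. cerevisiae and S. pombe cells had been mixed 8 to 1.

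Counts of 6069 of 7127 genes (a count in at least 50% of libraries) were tested with edgeR 4.0.16 in R 4.3.3, by quasi-likelihood tests with S. pombe totals as library sizes and Benjamini-Hochberg adjustment at 0.05. The labeled to total contrast used TMM instead. Time within a fraction came from a fit of all 6 groups with 4sU, and tests of 4sU had time as a covariate. DESeq2 1.42.0, other filters and scalings, a replicate term (a flask term in the labeled to total contrast) and leaving out each library were alternatives. Ratios and likeness were computed in Python 3.11.15. The tests were run on simulated counts with the same spread for all genes, which does not cover the spread of these libraries. The time test over all fractions had the fraction as a covariate there, so the fit with time alone was not checked. The 9 genes, the lists and the tests were chosen with earlier results of these data known. The text names all 9, the lists by their counts, and the 3 genes most like SPT15. Counts vary between replicates by more than sampling, and reads are not independent molecules. The labels only number the replicates, and the methods call them biological. The methods also describe a single culture as split between times and 4sU, so p-values measure only the spread between these libraries.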

Additional observations from a re-analysis of the deposited data

How the results depend on the processing

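Of the tests with counts of the 9 genes, those of time in labeled RNA and in total RNA with 4sU and both tests of a difference between time changes stayed at 0 under every alternative run. The count for time over all libraries was 0, and 3 with the fraction as covariate. For time in unlabeled RNA the 6 calls became 0 on TMM scaling, where the values moved, and 0 in a fit of the 4 libraries alone, where they stayed and the errors grew. With 1 library left out the calls changed, and the median over all genes moved between -1.54 and -0.55. TMM scaling gave 1 call for time in total RNA without 4sU, 0 for 4sU in labeled RNA (from 9) and 3 for 4sU in unlabeled RNA (from 9). For 4sU in total RNA the count was between 0 and 1 with 1 library left out. With 1 library left out, TFA1 was not called in the labeled to total contrast, so the set of genes called changed. That contrast then had between 3 and 5 calls. It had 9 on the S. pombe scale, where 5965 of 6069 genes were called higher and the median over all genes was 3.13. There all 9 were higher in labeled RNA, also those lower or near 0 on TMM scaling: SPT15 2.92, TOA1 2.91, TOA2 1.93, SUA7 2.32, TFG1 3.09 and TFA1 2.87. TFG1 in that contrast had 0.010 with at least 10 counts in all libraries, and between -0.091 and 0.012 with 1 library left out. The median log2 fold change of the 9 genes between the times in labeled RNA, -0.42, was 0.023 on TMM scaling.

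Signs also turned on TMM scaling for SPT15 (0.023), TOA1 (0.03), TOA2 (0.06), TFG2 (0.21) and MOT1 (0.13) for time in labeled RNA, for SPT15 (0.11) and SUA7 (0.22) for time in unlabeled RNA, for SPT15 (0.04) for time in total RNA with 4sU and TFG1 (-0.024) without it, for TOA1 (-0.66), TOA2 (-0.62), TFA1 (-0.15), MOT1 (-0.14) and TFG2 (-0.07) for 4sU in labeled RNA, for TFG1 (-0.04) for 4sU in total RNA, and for SPT15 (0.46), TOA1 (0.25), TOA2 (0.28), SUA7 (0.33) and TFG2 (0.30) for 4sU in unlabeled RNA. They turned as well for SPT15 (0.07), TFG2 (0.04) and MOT1 (0.29) for time over all libraries with 4sU, and, in the tests of a difference between time changes, for TFG1 (0.07), TFA1 (0.0046), TOA1 (0.19) and SUA7 (0.17) between labeled and total RNA and TFG2 (0.08) between total RNA with and without 4sU. With 1 library left out, TFG2 lay between -0.58 and 0.058 for time in labeled RNA, and SUA7 between -1.68 and 0.38 for time in unlabeled RNA. The median percentile of the labeled to total ratio, 43.3, was 53.5 among genes with at least 10 counts, and between 43.0 and 45.2 with 1 replicate left out. Likeness on TMM scaling was -0.54 for the TFIIA genes, 0.66 for the TFIIF genes and -0.029 for the TFIIE genes, and 0.87, 0.88 and 0.81 in the 12 libraries with 4sU alone. Without the library that stood apart, chosen after seeing the data, it was 0.845 for the TFIIF genes. The cause of these changes was not tested, other than the scale itself.

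The block was the replicate number, and in the labeled to total contrast it was the flask (replicate and time). The block gave 1 call for 4sU in total RNA (TFA2, 0.83). It took the calls of TFG1 in unlabeled RNA over time (-1.24) and of TFA1 in the labeled to total contrast (-0.25), and changed no other call of the 9 genes. Samples with the same number deviated together with r over 0.1 in 36 of 66 pairs of groups, with a median of 0.12. It was over 0.1 in 6 of 6 pairs of total RNA groups (0.125 to 0.193) and in 2 of 2 between labeled and total RNA with 4sU of one flask (0.132 to 0.264). The labels do not tie a number to a culture, so the fits above are without the block, and its value stands beside each of these 3 results. Unlabeled libraries with 4sU held between 3 and 280 reads of a gene and limit what could be detected there.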
